A study of Mus musculus with 16 samples.

Results

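The 34 genes described here encode the proximal signalling machinery of the T cell receptor (TCR), from the kinases that start the signal to the phosphatases and ubiquitin ligases that restrain it. They were chosen by name for their place in the pathway, not by any measured value, and carry 58 transcription start sites (TSSs) of the 31554 TSSs of 26089 genes in the curated RefSeq annotation of mm10 on chromosomes 1 to 19 and X. In cultured mouse CD8+ T cells, the study mapped by ChIP-seq the demethylase LSD1, RNA polymerase II (Pol II) and the histone marks H3K4me1, H3K4me2, H3K4me3 and H3K27ac. The cells came from spleens of OT1 mice, whose T cells bear a transgenic TCR. They were activated with anti-CD3 (2 μg/ml), anti-CD28 (2 μg/ml) and IL-2 (20 ng/ml) for 48 h and expanded for 3 days in IL-2, either with 0.5 μM GSK2879552, an irreversible LSD1 inhibitor (GSK), or with vehicle (Veh). Both groups thus share the transgene and the activation and differ in the inhibitor. 1 peak list per antibody and treatment, 12 in all, is analysed here, so replicate spread cannot be measured, no p-value is given, and every interval below (Wilson, 95%) covers counting error only.

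LSD1 (Kdm1a) is a demethylase that removes methyl groups from mono- and dimethylated lysine 4 of histone H3 but does not act on the trimethylated form. H3K4me3 marks promoters, H3K4me1 is typical of enhancers, H3K4me2 occurs at both, and H3K27ac accompanies active promoters and enhancers. In TCR signalling, LCK and FYN phosphorylate the receptor's CD3 and zeta chains, ZAP70 binds there and phosphorylates the scaffolds LAT and LCP2, and these gather GRB2, GRAP2, NCK1, VAV1, SOS1 and PLCG1. The products of PLCG1 act through RASGRP1 on RAS, through PRKCQ and the BCL10 and MALT1 complex on NF-kB, and through calcium on the NFAT factors. PTPRC (CD45) primes LCK, whereas CSK, PTPN22, PTPN6, INPP5D, the CBL ligases, the diacylglycerol kinases and the UBASH3 proteins limit the signal.

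A gene was called for an antibody when a peak overlapped the 2 kb window centred on any of its TSSs (TSS ± 1 kb) by at least 1 bp. As all 34 genes had an H3K4me3 promoter peak in Veh and in GSK, their calls are set beside those of the 12997 genes that had one in both treatments. The 34 genes carried 1.71 TSSs each on average and 17 of them had several (50% against 21.2% of the 12997 genes), which gives them more windows in which a peak can fall. They were also longer, with a median of 52.5 kb against 20.4 kb, from Lat (5.74 kb) to Themis (215.5 kb). The peak lists differed in length between Veh and GSK, most for H3K27ac (7410 and 2751 peaks) and H3K4me2 (15219 and 9437), less for H3K4me1 (34387 and 40272), LSD1 (21252 and 19919), H3K4me3 (15779 and 16887) and Pol II (15638 and 15401). The lists do not hold their depth. The study's reporting summary gives fewer unique read pairs in GSK than in Veh for H3K27ac and H3K4me2, and to a lesser degree for LSD1, and more in GSK for H3K4me1, H3K4me3 and Pol II. The part of depth in the results below was not tested, and fold enrichments are compared within a list, as the percentage of its peaks at or below the value (percentile). H3K4me3 promoter peaks were present in both treatments at all 6 T cell markers examined (Cd3e, Cd3d, Cd3g, Cd8a, Cd8b1, Thy1) and at none of Cd4, Foxp3, 4 B cell markers and 2 NK cell markers. Of 4 myeloid and 3 non-haematopoietic markers, Cd14 and Epcam had an H3K4me3 peak, without Pol II or H3K27ac. Among the 6 T cell markers, Pol II was called at 3 in Veh and 5 in GSK, and H3K27ac at 3 and 0. Cd8a had neither in either treatment.

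The sequences below show some of the strongest LSD1 sites of these loci that lie outside promoters, and the paired promoters of Lck and Nfatc2 that differ in their marks. Each LSD1 window is 200 bp centred on a peak summit and is given on the plus strand. Each promoter window is the 200 bp just upstream of a TSS and is given on the strand of the gene. All come from the RefSeq assembly GRCm38.p6 (mm10) and none overlaps an exon. Capitals mark matches, on either strand, to short motifs of factor families active in T cells: RUNX (TGTGGT), ETS (AGGAAG or CCGGAAG, which cannot match at the same bases of the same strand), AP-1 (TGANTCA), GFI (AAATCNC), bHLH (CAGNTG), CRE (TGACGT), the motif of GATA factors (AGATAA) and that of TCF factors (CTTTGA). A match describes the letters only. Fyn intron 3 is the strongest distal site called in Veh alone, Nfatc2 intron 5 is a site called in GSK alone, and the other 4 sites were called in both treatments.

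Fyn intron 3, Veh only, chr10:39486578-39486777: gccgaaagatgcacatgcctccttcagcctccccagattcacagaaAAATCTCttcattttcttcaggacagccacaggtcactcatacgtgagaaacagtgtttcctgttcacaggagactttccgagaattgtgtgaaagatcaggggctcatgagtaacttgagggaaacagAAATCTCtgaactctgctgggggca
Nfatc2 intron 5, GSK only, chr2:168531448-168531647: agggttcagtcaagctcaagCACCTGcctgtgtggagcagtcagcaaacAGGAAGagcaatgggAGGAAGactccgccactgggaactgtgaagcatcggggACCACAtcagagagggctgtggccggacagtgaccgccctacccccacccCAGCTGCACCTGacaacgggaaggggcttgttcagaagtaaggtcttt
Ubash3b intron 1, both, chr9:41105401-41105600: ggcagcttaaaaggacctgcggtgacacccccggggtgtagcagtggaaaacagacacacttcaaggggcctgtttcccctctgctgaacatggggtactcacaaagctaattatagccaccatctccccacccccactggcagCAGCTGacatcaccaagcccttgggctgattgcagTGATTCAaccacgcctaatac
Vav1 intron 1, both, chr17:57290718-57290917: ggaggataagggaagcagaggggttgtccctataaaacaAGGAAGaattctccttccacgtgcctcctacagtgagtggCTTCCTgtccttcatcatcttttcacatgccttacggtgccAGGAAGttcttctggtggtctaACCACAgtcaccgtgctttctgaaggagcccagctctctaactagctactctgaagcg
Bcl10 upstream, both, chr3:145916952-145917151: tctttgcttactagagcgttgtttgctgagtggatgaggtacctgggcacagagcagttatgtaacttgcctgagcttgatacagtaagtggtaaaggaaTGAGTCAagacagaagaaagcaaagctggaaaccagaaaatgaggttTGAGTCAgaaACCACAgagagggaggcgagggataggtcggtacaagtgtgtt
Pag1 intron 1, both, chr3:9802347-9802546: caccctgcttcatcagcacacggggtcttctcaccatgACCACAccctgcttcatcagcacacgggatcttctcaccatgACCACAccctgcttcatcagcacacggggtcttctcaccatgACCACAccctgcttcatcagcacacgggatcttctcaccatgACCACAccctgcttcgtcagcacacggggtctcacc
Lck TSS 1 (minus strand), chr4:129573642-129573841: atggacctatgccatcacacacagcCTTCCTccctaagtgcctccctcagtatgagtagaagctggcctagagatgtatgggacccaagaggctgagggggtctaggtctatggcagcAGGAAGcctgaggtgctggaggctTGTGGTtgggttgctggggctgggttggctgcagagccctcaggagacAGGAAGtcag
Lck TSS 2 (minus strand), chr4:129558373-129558572: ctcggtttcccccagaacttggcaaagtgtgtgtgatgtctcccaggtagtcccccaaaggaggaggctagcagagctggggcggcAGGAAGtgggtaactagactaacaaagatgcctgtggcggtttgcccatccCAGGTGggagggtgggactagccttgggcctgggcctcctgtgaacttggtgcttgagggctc
Nfatc2 TSS 1 (minus strand), chr2:168601658-168601857: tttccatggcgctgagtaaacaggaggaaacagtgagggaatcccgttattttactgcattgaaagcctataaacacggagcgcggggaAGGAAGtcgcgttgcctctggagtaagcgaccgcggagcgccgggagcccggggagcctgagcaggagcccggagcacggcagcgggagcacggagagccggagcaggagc
Nfatc2 TSS 2 (minus strand), chr2:168590366-168590565: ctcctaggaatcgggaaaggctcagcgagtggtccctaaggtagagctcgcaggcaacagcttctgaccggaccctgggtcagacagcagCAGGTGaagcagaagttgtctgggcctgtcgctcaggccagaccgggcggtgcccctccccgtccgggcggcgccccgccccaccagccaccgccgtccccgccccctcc

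The Fyn window holds GFI matches at positions 47 and 176 (counted from 1 at the left end), and the Ubash3b window a bHLH match at 145 and an AP-1 match at 180. The Nfatc2 intron 5 window holds bHLH matches at 21, 153 and 159, AGGAAG at 50 and 65 and a RUNX match at 103. The Vav1 window holds AGGAAG matches at 40, 80 and 121 and a RUNX match at 143, and the Bcl10 window AP-1 matches at 101 and 148 and a RUNX match at 158. In the Pag1 window the RUNX match recurs at 39, 81, 123 and 165 in a tandem repeat that the genome's repeat masking does not mark (0% masked). Over all 12563 distal Veh LSD1 windows of this length, 32% held the RUNX motif, 35.1% AGGAAG, 13% AP-1, 9.44% GFI and 44.2% bHLH. Upstream of Lck TSS 1 lie AGGAAG matches at 26, 119 and 191 and a RUNX match at 143, while TSS 2 has AGGAAG at 87 and bHLH at 138. Upstream of Nfatc2, TSS 1 has AGGAAG at 90 and TSS 2 bHLH at 91.

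Promoters of the TCR signalling genes were H3K4me3-marked throughout, mostly bound by Pol II and acetylated in Veh, and seldom called for H3K4me2. Against 50.2% of all 26089 genes in Veh and 51.3% in GSK, H3K4me3 was called at 34 of 34 genes in both. Pol II was called at 28 of 34 genes in Veh (82.4%, interval 66.5 to 91.7) and 24 in GSK (70.6%), beside 58% and 49.2% of the 12997 genes. H3K27ac was called at 24 genes in Veh (70.6%, interval 53.8 to 83.2) and 12 in GSK (35.3%), beside 41% and 17.2%. H3K4me2 went the other way, with 12 genes in Veh (35.3%, interval 21.5 to 52.1) and 5 in GSK (14.7%, interval 6.45 to 30.1), beside 73.5% and 53.2%. LSD1 was called at 24 genes in each treatment (70.6%), close to the 69.5% of the 12997 genes in Veh and below the 79% in GSK, and H3K4me1 at 21 genes in each (61.8%, interval 45 to 76.1), beside 49.2% and 59.5%. A further list of 46 genes from the wider pathway lay between the 34 genes and the 12997 genes in both treatments for H3K4me2 (27 genes in Veh, 58.7%, and 11 in GSK, 23.9%), H3K27ac (27 and 13 genes) and Pol II (32 and 28 genes). For LSD1 it had 32 and 37 genes and for H3K4me1 17 and 22.

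**Figure D1:**
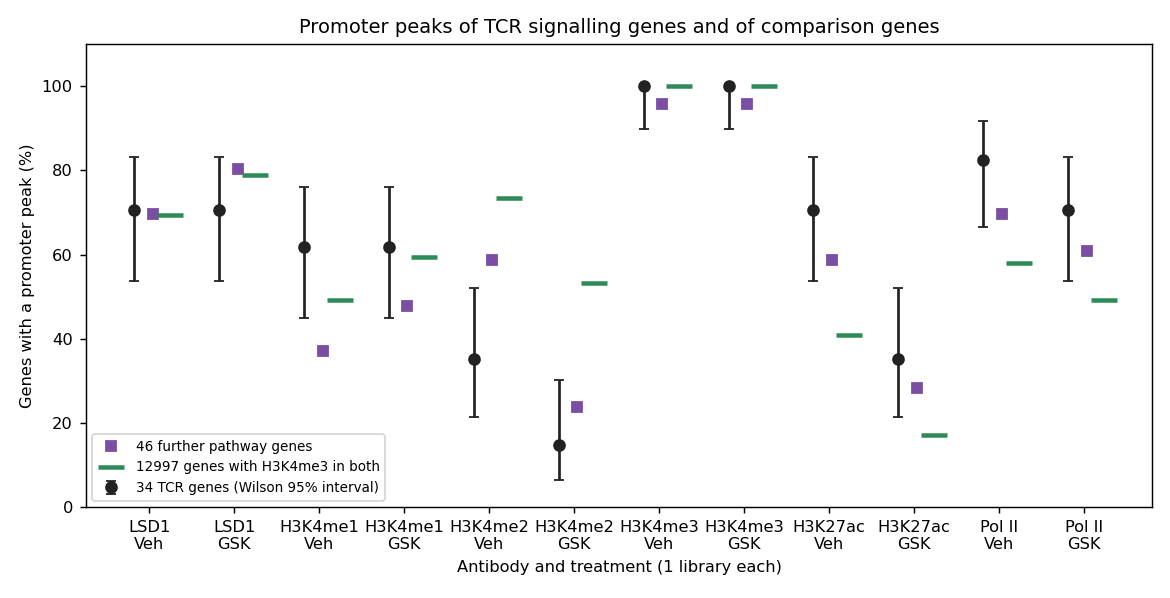
Percentage of genes (y axis) with a promoter peak in each of the 12 peak lists (x axis, 1 list each), for the 34 TCR signalling genes (circles with Wilson 95% intervals, counting error only), 46 further pathway genes (squares) and the 12997 genes with H3K4me3 in both treatments (bars). The circles lie below the bars for H3K4me2 (35.3% against 73.5% in Veh) and above them for H3K27ac and Pol II.

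Among the 3 kinases, Lck, which begins the signal, had peaks of all 6 antibodies in Veh and of 5 in GSK, where H3K4me2 was not called. Zap70, which relays it to the scaffolds, showed the same series of calls. Fyn, the second Src-family kinase of T cells, had LSD1 (fold 3.68 in Veh and 4.13 in GSK), H3K4me3 and Pol II (6.23 and 4.46) in both treatments and neither H3K4me1, H3K4me2 nor H3K27ac in either.

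Among the 7 adaptors, Nck1, which links the receptor to actin regulators, had all 6 antibodies in Veh, and in GSK lost the calls of H3K4me1 and H3K4me2. Lat carried LSD1, H3K4me1, H3K4me3 and Pol II in both treatments and H3K27ac in Veh only. Lcp2 and Grap2, whose products bind each other, had no LSD1 peak at their promoters but H3K4me3, H3K27ac and Pol II in both treatments, and Lcp2 H3K4me1 as well. Sh2d2a and Themis, an LCK-binding adaptor and a T cell development factor, had LSD1 in Veh only. Grb2, the adaptor that carries SOS1, had Pol II in Veh only and H3K4me2 in both.

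Of the 6 enzymes and exchange factors, Vav1, Rasgrp1, Plcg1, Sos1 and Prkcq had LSD1 in both treatments and Pik3cd, a catalytic subunit of phosphoinositide 3-kinase, in neither. Of the 12997 genes, 62.3% had LSD1 in both. Pol II was called in both at Vav1, Rasgrp1 and Pik3cd (44.1% of the 12997) and in neither at Plcg1 and Sos1 (36.9%). Bcl10 and Malt1 of the NF-kB branch had Pol II in both treatments and H3K27ac in Veh only. All 3 NFAT genes had H3K27ac and Pol II in Veh. Nfatc1 and Nfatc2 were 2 of the 5 genes with all 6 antibodies in that treatment, the others being Lck, Zap70 and Nck1 (976 of 12997 genes, 7.51%, had all 6), and none of the 34 had all 6 in GSK (2.33% of the 12997).

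The 4 phosphatases, Ptprc, Ptpn6, Ptpn22 and Inpp5d, had Pol II in both treatments and none had LSD1 in both: Inpp5d had it in Veh only, Ptpn6 in GSK only and the others in neither. Of the 9 other brakes, 6 had LSD1 in both treatments (Pag1, Cbl, Cblb, Dgkz, Ubash3a and Ubash3b), while Pol II was called in both at 3 (Cblb, Ubash3a, Sla2). Csk, the kinase that inactivates LCK, had H3K4me1, H3K4me3, H3K27ac and Pol II in Veh and H3K4me3 alone in GSK. Dgka and Dgkz, which remove the diacylglycerol that RASGRP1 needs, had no Pol II call in either treatment.

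**Figure D2:**
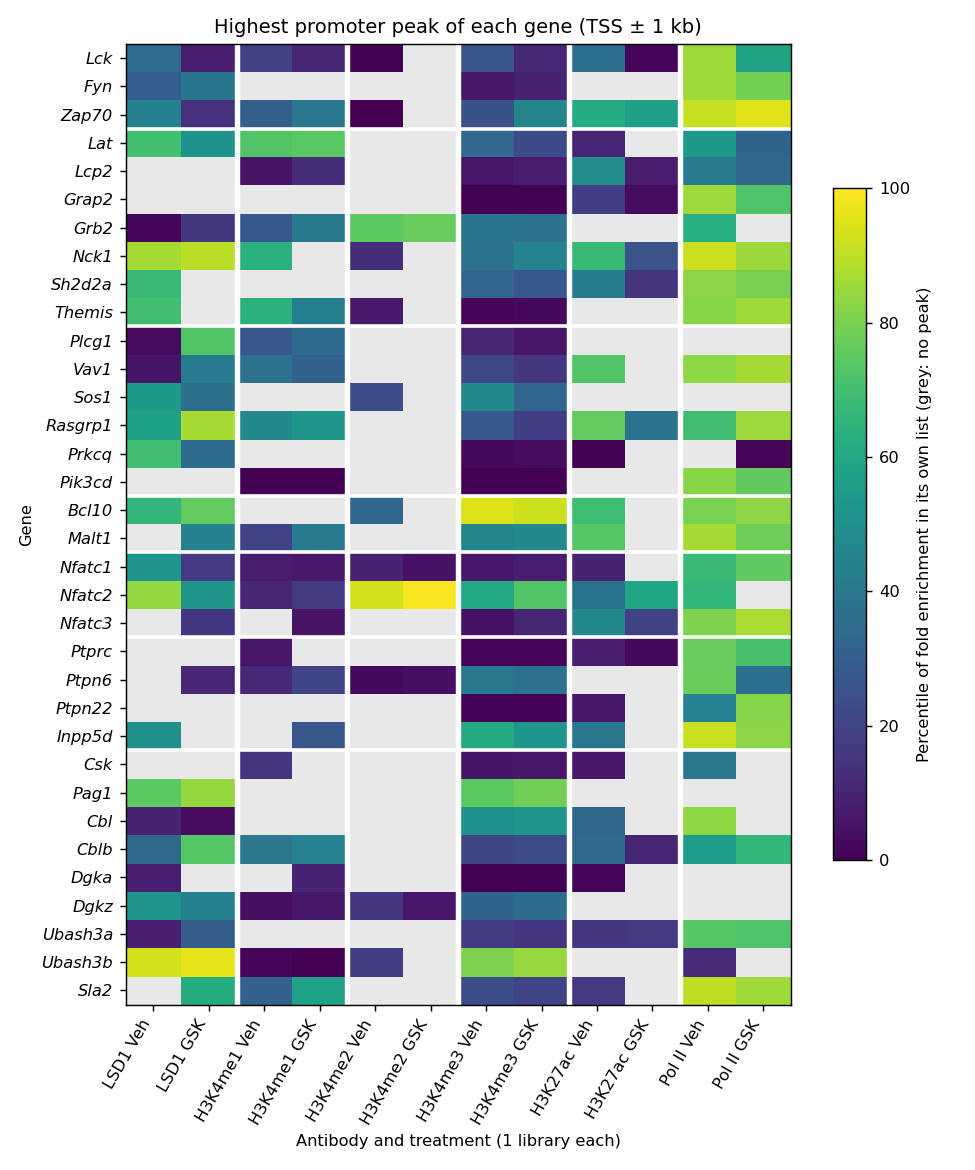
Highest promoter peak of each of the 34 genes (rows, grouped by role with white lines) in each of the 12 peak lists (columns, 1 list each), coloured by the percentile of its fold enrichment in that list. Grey cells have no peak, as for 22 genes under H3K4me2 in Veh, and the brightest H3K4me2 cells are those of Nfatc2 (percentile 93.1 in Veh and 98.9 in GSK).

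As combinations, H3K4me3, H3K27ac and Pol II together were called at 22 of the 34 genes in Veh (64.7% against 36% of the 12997) and at 11 in GSK (32.4% against 15.1%). H3K4me3 and Pol II without H3K4me2 occurred at 18 genes in Veh (52.9% against 19.1%) and 22 in GSK (64.7% against 28.6%). The combination of H3K4me1, H3K4me3, H3K27ac and Pol II without LSD1 and H3K4me2 was held in Veh by Lcp2, Malt1, Ptprc, Csk and Sla2, 5 genes, against 0.985% of the 12997. Plcg1, Sos1, Pag1 and Dgkz had neither H3K27ac nor Pol II in Veh (11.8% against 37.1%), and in GSK Grb2, Csk, Cbl, Dgka and Ubash3b joined them (9 genes, 26.5% against 48.6%).

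The H3K4me3 peaks of the TCR signalling genes were wide, with low folds for their list. Their median width was 1989 bp in Veh and 1984 bp in GSK, against 1264 and 1257 bp over the 12997 genes. In each treatment 19 of the 34 (55.9%) lay at or above percentile 90 of the width of all H3K4me3 peaks, against 15.1% of the 12997 in Veh and 15.9% in GSK, and 13 of the 44 further pathway genes with a peak (29.5%). The widest belonged to Ptpn22 (4409 bp in Veh and 4217 bp in GSK), Grap2 (3510 and 3549 bp), Themis (3297 and 3293 bp), Ptprc (3190 and 3244 bp) and Dgka (3120 and 3096 bp). The narrowest was at Bcl10 (850 and 910 bp), which also had the highest fold of the 34 (9.50 and 9.04, percentiles 94.9 and 92.5). It was followed in Veh by Ubash3b (7.51) and Pag1 (7.10), and the lowest folds were at Pik3cd (2.21, percentile 0.507) and Dgka (2.25, percentile 0.570). The median percentile of the H3K4me3 fold was 24.3 over the 34 genes and 56.1 over the 12997 in Veh. By the −log10 p of the same peaks it was not low, with 69.26 and 64.99 in Veh, and 67.13 and 67.18 in GSK. Wide peaks had lower folds in the list as a whole, with a median of 4.15 at or above percentile 90 of width and 7.41 in the middle of the width range. Widths changed most at Zap70 (2141 bp in Veh to 1359 bp in GSK), Nfatc3 (2921 to 2243 bp), Plcg1 (1973 to 2517 bp) and Cbl (1412 to 1935 bp).

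**Figure D3:**
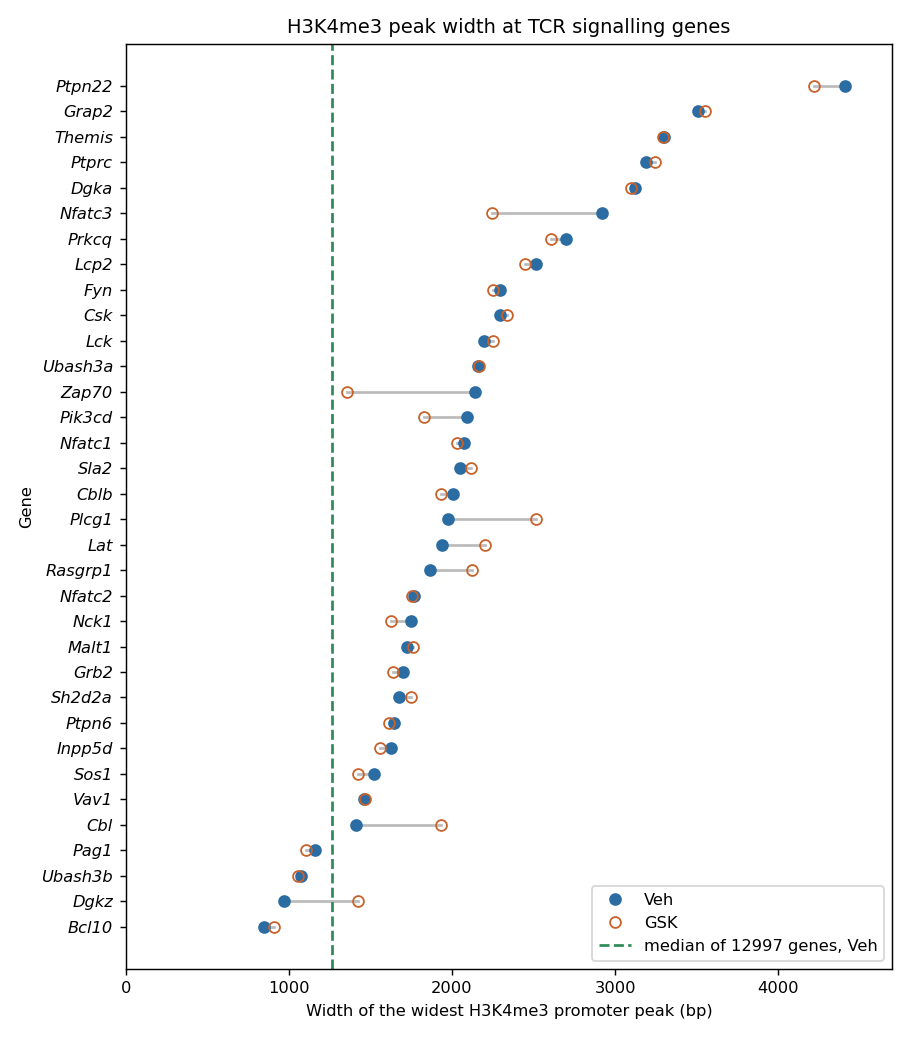
Width in bp (x axis) of the widest H3K4me3 promoter peak of each of the 34 genes (y axis, ordered by the Veh width) in Veh (filled circles) and GSK (open circles), 1 list each, with the median of the 12997 genes in Veh as a dashed line (1264 bp). All but Pag1, Ubash3b, Dgkz and Bcl10 lie to the right of the line in Veh, and Zap70 shows the widest gap between treatments.

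The scarcity of H3K4me2 calls was seen at wide and at narrower H3K4me3 promoters. Of the 19 genes at or above percentile 90 of width, 4 had H3K4me2 in Veh (Lck, Zap70, Themis, Nfatc1; 21.1%) against 45.8% of the 1964 such genes among the 12997. Of the 15 narrower ones 8 had it (53.3%) against 78.5%. H3K27ac, in contrast, was called at 15 of the 19 wide promoters in Veh (78.9%), close to the 73% of wide promoters in the 12997, and Pol II at 16 of 19 (84.2% against 78.4%). H3K4me1 was called at 12 of the 19 genes in each treatment (63.2%), against 25.6% of such genes among the 12997 in Veh and 32.2% in GSK. In all these counts a call at any TSS of the gene counted, and need not lie at the wide H3K4me3 peak. At Pik3cd the H3K4me1 peak lay at TSS 4, 38313 bp from TSS 1, without H3K4me3. At Dgka in GSK it also lay at TSS 4 without H3K4me3, 7472 bp from TSS 1. In a wider window, a H3K4me2 peak lay within 5 kb of a TSS at 20 of the 34 genes in Veh (58.8% against 80.7%) and 8 in GSK (23.5% against 57.1%). Flanking peaks were found, for instance, 1272 bp downstream of the Lat TSS (fold 3.24) and at -2485 bp from the Vav1 TSS (fold 3.81 in Veh, and 4.29 in GSK at -2610 bp).

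Where H3K4me2 was called, its height ranged widely. In Veh the highest were Nfatc2 (fold 6.41, percentile 93.1), Grb2 (5.29, percentile 74.8) and Bcl10 (4.29, percentile 33.7), and the lowest Zap70 (2.51, percentile 0.0591) and Lck (2.80, percentile 0.513). The median percentile was 14.3 over the 12 genes called and 50.4 over the 12997. H3K4me2 was called in both treatments at Grb2, Nfatc1, Nfatc2, Ptpn6 and Dgkz (5 of 34, against 50.1% of the 12997). It was called in Veh only at 7 genes, Lck, Zap70, Nck1, Themis, Sos1, Bcl10 and Ubash3b (7 of 34, against 23.4% of the 12997), and in GSK only at 0 (against 3.09%). At Grb2 and Nfatc2 the fold in GSK was 5.70 (percentile 76.8) and 7.86 (percentile 98.9). Over all 34 genes the Veh-only share is thus near that of the 12997. Of the genes called in Veh, however, 7 of 12 were Veh only, against 3044 of 9555. With both lists cut to the 9437 strongest peaks the Veh-only genes were 2 (Sos1 and Ubash3b) and the GSK-only genes 1 (Ptpn6).

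H3K27ac was called in both at 12 genes, in Veh only at 12, in GSK only at 0 and in neither at 10. Of the 12997 genes, 16.5% were called in both, 24.4% in Veh only, 0.669% in GSK only and 58.4% in neither. Of the genes called in Veh, 12 of 24 were Veh only, against 3175 of 5324. The GSK library is by the study's reporting summary much the shallower of the pair and its list the shorter, and the part of this in the Veh-only calls was not tested. The Veh-only genes, from the highest −log10 p down, were Malt1 (fold 4.38, −log10 p 13.07), Vav1 (4.35, 13.03), Bcl10 (4.27, 10.41), Inpp5d (3.73, 9.64) and Csk (2.96, 9.40), followed by Ptpn22, Prkcq, Cbl, Dgka, Nfatc1, Lat and Sla2. They include Bcl10 and Malt1, partners in the NF-kB branch, and 4 of the 9 brakes other than phosphatases. The highest promoter fold in Veh was at Rasgrp1 (4.45, percentile 75.9), the exchange factor that activates RAS, and the lowest were at Prkcq (2.28, percentile 0.513) and Dgka (2.51, percentile 1.28).

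At the 12 genes called in both, the percentile of the H3K27ac fold was lower in GSK at 10, with a median difference (GSK minus Veh) of -25.6 points against -6.77 over the 2149 of the 12997 genes called in both. These are ranks in lists of different length and composition, whose median fold was 3.90 in Veh and 4.91 in GSK, so no change of acetylation is read from them. The percentile was 67.3 in Veh and 25.6 in GSK at Nck1, 49.5 and 7.96 at Lcp2, and 75.9 and 38.1 at Rasgrp1, where the fold itself was 4.45 and 4.70. It was higher in GSK at Nfatc2 (38.8 and 58.9) and Ubash3a (15.1 and 16.9). At Zap70 the highest peak lay at a different TSS in each treatment. The Zap70 percentile was 12.7 in Veh and 56.6 in GSK at TSS 1 (fold 3.22 and 5.02), and 61.6 and 21.2 at TSS 3 (fold 4.10 and 4.37). At Lck it was 6.02 and 1.60 at TSS 1 (fold 2.94 and 3.28), while the higher Veh peak at TSS 2 (percentile 36.5) had none in GSK. The median above takes the highest peak of each gene and so includes these pairs of unlike TSSs at Zap70 and Lck. With both lists cut to the 2751 strongest peaks, 9 genes were called in both, Vav1 and Malt1 in Veh only, and Nck1, Cblb and Ubash3a in GSK only. Vav1 and Malt1 were thus in Veh only with the lists in either form, whereas the other 10 Veh-only calls were not.

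LSD1 was called at the promoter in both treatments at 20 of 34 genes, against 62.3% of the 12997. It was called in neither at 6 (Lcp2, Grap2, Pik3cd, Ptprc, Ptpn22 and Csk), against 13.8%. The Veh-only genes were Sh2d2a (fold 4.80, −log10 p 11.68), Themis (4.93, 8.61), Inpp5d (4.21, 7.30) and Dgka (3.07, 5.43), 4 of 34 against 7.21% of the 12997. The GSK-only genes were Sla2 (4.91, 9.23), Malt1 (4.29, 7.17), Nfatc3 (3.51, 6.17) and Ptpn6 (3.33, 5.15), 4 of 34 against 16.7%. As many of these promoters were thus called for LSD1 with the inhibitor as with vehicle. The highest Veh peaks were at Ubash3b, which dampens ZAP70 (fold 7.13 in Veh and 8.27 in GSK, percentiles 93.2 and 96.5), Nck1 (6.03 and 6.71) and Nfatc2 (5.76 and 4.57, percentiles 83.9 and 53.1). The lowest were at Grb2 (2.82 in Veh at TSSs 2 and 3, and 3.50 in GSK at TSS 1) and Plcg1 (2.91 and 5.40), and Plcg1 moved furthest, from percentile 2.83 to 72.8. Over the 20 genes the median difference was 3.21 percentile points, against 6.48 over the 12997, with 11 higher and 9 lower in GSK. At Lck (36.3 to 7.51) and Zap70 (43.8 to 14.4) it was lower.

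Pol II was called in both treatments at 23 of 34 genes, against 44.1% of the 12997. The Veh-only genes were Cbl (fold 5.95, −log10 p 13.89), Nfatc2 (4.61, 8.97), Grb2 (4.43, 6.84), Csk (3.66, 6.72) and Ubash3b (3.05, 3.70), 5 of 34 against 13.9% of the 12997. Prkcq, the kinase that links the receptor to NF-kB, was called in GSK only (2.65, 6.15, percentile 1.81), 1 of 34 against 5.15%. Nck1 (fold 7.29 in Veh and 4.88 in GSK), Inpp5d (7.21 and 4.69) and Zap70 (7.13 and 6.52) had the highest Veh folds, and Ubash3b (3.05) and Csk (3.66) the lowest. Among the genes called in both, the percentile was lower in GSK at 14 and higher at 9, with a median difference of -4.72 points against -0.203. It changed most at Ptpn22 (44.4 to 81.8) and Ptpn6 (77.3 to 36.4), both phosphatases, and at Lck (85.9 to 58.2).

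H3K4me1 was called at the promoter in both treatments at 18 genes (18 of 34 against 43.4% of the 12997). It was called in Veh only at Nck1, Ptprc and Csk (3 of 34 against 5.86%) and in GSK only at Nfatc3, Inpp5d and Dgka (3 of 34 against 16.2%). The highest Veh percentiles were at Lat (72.7), Themis (64.4) and Nck1 (63.9), and the lowest at Pik3cd (0.323) and Ubash3b (1.45). The median was 20.6 over the 21 genes and 58.1 over the 12997 by fold, but 56.09 and 47.95 by the −log10 p of the same peaks. The median change of the fold percentile over the genes called in both was 5.11 points, against 1.53.

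Genes with several TSSs often carried the marks at different sites, so that a call for the gene need not mean that the marks meet. At Lck, TSS 1 (chr4:129573641, minus strand), which serves the distal promoter, had Pol II (fold 6.26 in Veh and 3.66 in GSK), H3K4me3 (4.64 and 3.94), H3K27ac (2.94 and 3.28) and no LSD1. TSS 2, 15269 bp downstream, had LSD1 (3.85 and 3.25), H3K4me3 (3.38 and 3.32), H3K27ac in Veh only (3.69) and no Pol II. The change of the Lck H3K27ac percentile given above therefore compares TSS 2 in Veh with TSS 1 in GSK. The Lck, Fyn and Dgka windows also hold the TSS of another annotated gene (Mir8119, Gm31616 and Gm31504), and a peak there cannot be assigned to either.

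Nfatc2 showed a sharper division. TSS 1 (chr2:168601657, minus strand) had LSD1 (5.76 and 4.57), H3K4me1 (2.81 and 2.91), H3K4me2 (6.41 and 7.86) and H3K4me3 (6.17 and 7.02), and neither H3K27ac nor Pol II. TSS 2, 11292 bp downstream, had H3K4me3 (4.88 in each), H3K27ac (3.73 and 5.06), a lower LSD1 peak (3.37 and 3.84), Pol II in Veh only (4.61), and neither H3K4me1 nor H3K4me2. The 6 antibodies called at Nfatc2 in Veh were thus not together at any TSS.

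Grb2 had Pol II (4.43, Veh only) and H3K4me3 (5.19 and 5.15) at TSS 1, whereas H3K4me1 (3.41 and 3.60) and H3K4me2 (5.29 and 5.70) lay at TSS 2 and TSS 3, 8669 and 9063 bp downstream. Its LSD1 peak was at TSS 2 and TSS 3 in Veh (2.82) and at TSS 1 in GSK (3.50), so the call in both treatments stands for different sites. At Zap70, TSS 1 carried Pol II (7.13 and 6.52) and LSD1 in GSK only (3.46). TSS 3, 5136 bp downstream, carried LSD1 in both treatments (4.05 and 3.29) and H3K27ac (4.10 and 4.37), without H3K4me3, and Pol II in GSK only (3.53). The Zap70 percentiles of LSD1 and H3K27ac given above set TSS 3 in Veh against TSS 1 in GSK. H3K4me2 lay at TSS 2 of Zap70 in Veh only (2.51).

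The division was only partial at other genes. Ptpn6 had Pol II (5.40 and 3.25) and H3K4me3 (5.23 and 5.17) at TSS 2, with H3K4me2 there in Veh only (3.10). At its TSS 1, H3K4me2 was called in both treatments (3.08 and 3.77) without Pol II or H3K4me3. Nfatc1 had its Pol II (4.71 and 4.26) and H3K27ac (3.13, Veh only) at TSS 2, 4898 bp downstream of TSS 1, where LSD1 was higher (4.28 and 3.53 against 3.04 and 2.85). Every antibody was nonetheless called at TSS 2 of Nfatc1 in Veh, so there the marks did meet. Dgkz had LSD1 at TSS 1 (4.07 and 4.30) and, in Veh only, at TSS 2 (4.27). At TSS 2, H3K4me1, H3K4me2 (3.81 and 3.89) and H3K4me3 were called in both treatments, so every antibody called at Dgkz in Veh lay there. No peak of any antibody was found at TSS 1 of Csk, TSS 2 of Nck1, TSS 2 of Grap2 or TSS 3 of Pik3cd. TSS 2 of Ubash3b, 78556 bp from TSS 1, had H3K4me1 alone (2.21 and 1.91).

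Counted over TSSs, 48 windows of the 34 genes had H3K4me3 in Veh, 32 of them with Pol II and 16 without. With Pol II, H3K4me2 was found at 8 (25%) and LSD1 at 16 (50%). Without Pol II, H3K4me2 was found at 7 (43.8%) and LSD1 at 13 (81.2%). Over all H3K4me3 windows of the annotation in Veh, LSD1 was found at 72.9% of those with Pol II and 61.1% of those without, the opposite order, and H3K4me2 at 65.6% and 80.6%. In GSK, 28 of 47 windows had Pol II, and LSD1 was found at 16 of these (57.1%) and at 11 of the 19 others (57.9%), so the order seen in Veh was not seen there. Over all H3K4me3 windows in GSK the shares were 84.3% and 70.5%. H3K4me2 was found in GSK at 1 of the 28 windows with Pol II (3.57%) and at 4 of the 19 others (21.1%), against 40.1% and 62.9%. Windows of the same gene can overlap and share a peak, so these counts are not of independent sites.

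**Figure D4:**
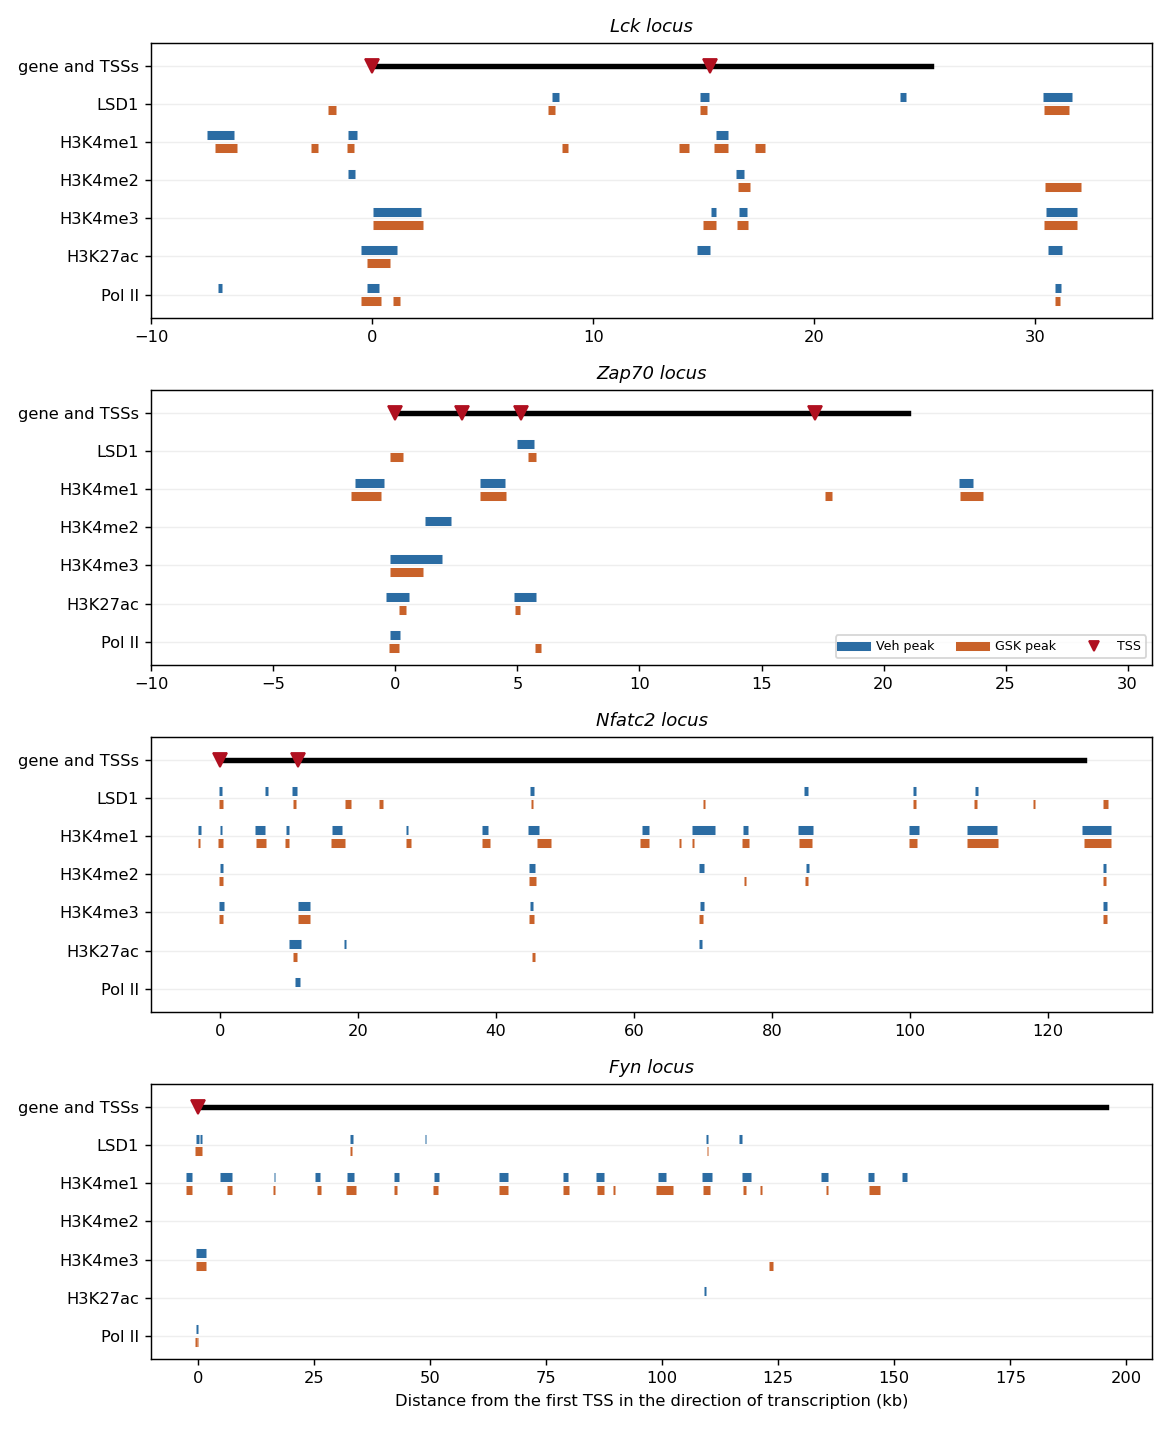
Peaks of the 6 antibodies (rows) in Veh (blue) and GSK (orange), 1 list each, over Lck, Zap70, Nfatc2 and Fyn with 10 kb on either side, drawn to scale against the distance in kb from TSS 1 in the direction of transcription (black line, gene, and red triangles, TSSs). In Nfatc2 Pol II and H3K27ac meet at TSS 2 (11.3 kb) while H3K4me2 is at TSS 1, and Fyn has many H3K4me1 peaks, 16 in Veh and 17 in GSK, and no H3K4me2 peak.

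Over the gene bodies extended by 10 kb on either side, 3.146 Mb in all, the loci of the TCR signalling genes held more peaks per Mb than those of the 12997 genes for all antibodies in both treatments but H3K4me2 in GSK. The Veh lists had 96 LSD1 peaks there (30.5 per Mb against 19.9), 196 of H3K4me1 (62.3 against 31.6), 85 of H3K4me3 (27 against 18.9), 66 of H3K27ac (21 against 8.50), 63 of Pol II (20.0 against 13.4) and 58 of H3K4me2 (18.4 against 17.0). The GSK lists had 92, 223, 96, 25, 55 and 27 peaks of the same antibodies, the last being 8.58 per Mb against 10.8. Outside the promoters of any gene (distal peaks), the Veh densities were 19.4 against 8.35 for LSD1, 52.4 against 22.3 for H3K4me1 and 11.4 against 2.43 for H3K27ac. Distal H3K4me2 was also denser, with 10.8 against 4.83 in Veh and 4.77 against 2.16 in GSK, unlike its calls at promoters. Neighbouring promoters within 10 kb, such as Hdac1 beside Lck, are included in the totals but not in the distal counts.

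LSD1 peaks were most numerous in Veh at Ubash3b (8, and 6 in GSK), Nfatc2 (7 and 10), Fyn (6 and 3), Grap2 (5 and 3) and Pag1 (5 and 2). These are counts per locus, not per kb. The Ubash3b and Fyn loci spanned 164.4 and 215.6 kb, while the Lat locus held 3 peaks in each treatment over 25.74 kb. LSD1 peaks covered 9.82% of the Lat locus in Veh, against 2.83% at Ubash3b and 1.39% at Fyn. The loci of Csk, Ptprc and Sh2d2a had 1 LSD1 peak each in Veh and 0 in GSK. Tied with these at 1 in Veh were Lcp2, Themis and Rasgrp1 (1 each in GSK), Zap70 and Sla2 (2 each) and Cbl (3). H3K4me1 peaks were most numerous at long loci (126.9 to 215.6 kb): Fyn (16 and 17), Nfatc2 (15 and 16), Nfatc1 (13 and 15), Cblb (12 and 14), and Prkcq and Ubash3b (10 each in Veh). Ptprc, the gene of the phosphatase CD45, had 1 in each treatment over 132.4 kb, whereas Lck went from 3 to 7 and Dgka from 2 to 5.

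LSD1 peaks were found in both treatments more often at promoters than away from them. Of the 35 Veh LSD1 peaks in these loci that overlapped a promoter, 27 were overlapped by a GSK peak (77.1%, interval 61 to 87.9), against 84.3% in the loci of the 12997 genes. Of the 61 distal ones 29 were (47.5%, interval 35.5 to 59.8), against 37.9%, a value within that interval. Counted from GSK, 26 of 38 promoter peaks (68.4%) and 29 of 54 distal peaks (53.7%) had a Veh peak, against 73.6% and 48% in the loci of the 12997 genes. The distal peaks found in both were stronger, with a median −log10 p of 12.18 in Veh against 6.23 for the 32 peaks not overlapped in GSK, and of 10.73 in GSK against 4.83 for the 25 not overlapped in Veh. A weaker peak lies nearer the cutoff of the list, so its absence from the other list need not mean a difference in binding.

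Several strong peaks were nonetheless called in Veh only. The strongest lay in intron 3 of Fyn, 116.9 kb from its TSS (fold 8.56, −log10 p 32.28; the Fyn sequence above). The peak itself overlapped H3K4me1 in Veh only, while the wider H3K4me1 region beside it was called in both treatments (fold 2.58 in Veh and 2.00 in GSK). Next came sites 496 bp (fold 9.0, −log10 p 26.78) and 7652 bp (7.18, 16.81) beyond the end of Malt1, the nearer of which overlapped H3K4me2 in Veh only and H3K4me1 in both treatments. They were followed by intron 1 of Pag1, 7.36 kb from the TSS (6.14, 13.45), and intron 6 of Nfatc2 (5.42, 11.27). Malt1 gained a promoter LSD1 call in GSK while both of its downstream sites were called in Veh only.

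The strongest GSK-only peaks were weaker than these. They lay in intron 1 of Prkcq, 30.5 kb from the TSS (fold 5.33, −log10 p 11.44), 1002 bp beyond the end of Pik3cd (5.16, 10.05), in intron 5 of Nfatc2 (4.96, 10.00), 5046 bp upstream of Cbl (4.56, 8.56) and in intron 3 of Cblb (4.61, 8.05). Among the peaks of both treatments, the strongest in Veh were in intron 1 of Ubash3b (fold 11.6 in Veh and 9.25 in GSK) and intron 3 of Nfatc2 (11.1 and 5.15), followed by a site 3.74 kb beyond the end of Dgka (10.9 and 8.24), intron 1 of Vav1 (8.39 and 5.91) and 7.21 kb upstream of Bcl10 (8.98 and 6.22). The Vav1 site overlapped H3K4me3 in both treatments and H3K27ac and Pol II in Veh only. In GSK the strongest was the Pag1 repeat shown above (8.50 and 10.1).

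**Figure D5:**
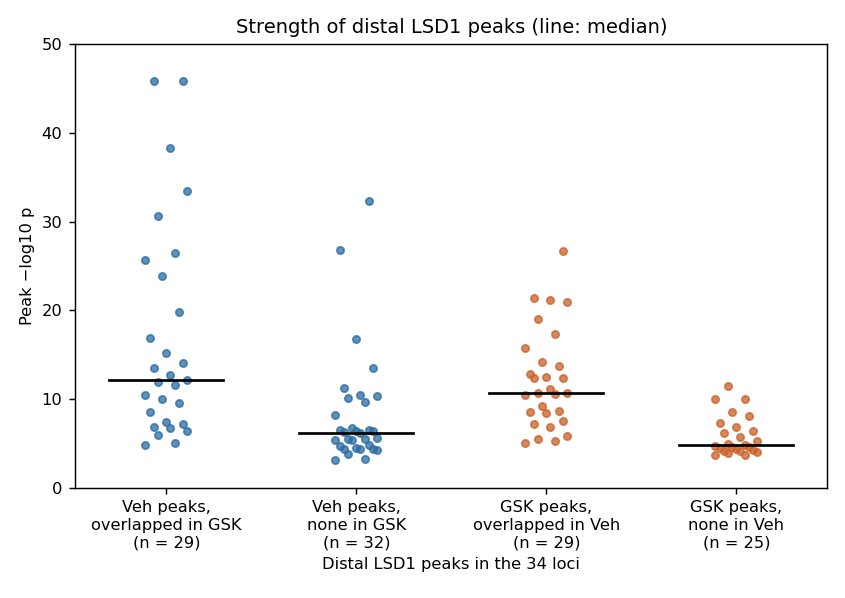
−log10 p (y axis) of each distal LSD1 peak (points) in the loci of the 34 genes, in Veh (blue) and GSK (orange), split by whether a peak of the other treatment overlapped it, with the median as a line. Overlapped peaks have the higher medians (12.18 against 6.23 in Veh, 10.73 against 4.83 in GSK), and the Veh-only peak above 30 is the Fyn intron 3 site.

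Introns held 45 of the 61 distal LSD1 peaks in Veh and 37 of 54 in GSK. The loci are gene bodies with 10 kb on either side, so most of their length is gene body, and no background share was computed. In Veh, 31 of the 61 overlapped an H3K4me1 peak of the same treatment, 13 H3K27ac, 9 H3K4me3, 6 H3K4me2 and 6 Pol II, and 19 none of these. In GSK, 27 of the 54 overlapped H3K4me1, 4 H3K27ac and 18 none. These overlaps were counted in the loci of the 34 genes only, so whether they differ from those of other distal LSD1 peaks was not tested. In the 200 bp around the summits, the RUNX motif was found in 41% of the Veh windows (25 of 61, interval 29.5 to 53.5) against 32% of all distal Veh LSD1 windows, and in 44.4% of the GSK windows (24 of 54, interval 32.0 to 57.6) against 25.5%. AGGAAG was found in 34.4% against 35.1% in Veh and in 50% (interval 37.1 to 62.9) against 32% in GSK. The AP-1 motif was found in 18% against 13% in Veh and 14.8% against 9.94% in GSK. GFI (9.84% against 9.44%), bHLH (45.9% against 44.2%), GATA (8.2% against 8.23%), TCF (13.1% against 13.7%) and CRE (3.28% against 2.52%) were close to the background in Veh, and CCGGAAG was in 0 of 61 windows (interval up to 5.92%) against 2.36%.

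Upstream of the 58 TSSs, AGGAAG was found in 29 windows of 200 bp (50%, interval 37.5 to 62.5) against 24.2% of the windows of all 31554 TSSs, while CCGGAAG, the form with CpG, was in 0 of 58 (interval up to 6.21%) against 7.47%. The bHLH motif was in 41.4% against 35.9%, RUNX in 8.62% against 10.1% and CRE in 3.45% against 6.49%. TSSs of the same gene can share part of a window.

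Distal regions were defined, after the study's own enhancer definition, as merged H3K4me1 and H3K4me2 peaks of both treatments that overlap no H3K4me3 peak and lie over 2.5 kb from any TSS. The loci held 162 of them, most at Fyn (17), Cblb (13), Nfatc1 (11), Nfatc2 (11) and Grap2 (10), and 0 at Lat, Sh2d2a, Ptprc and Sla2. These counts were not scaled to locus length. The Fyn and Grap2 loci spanned 215.6 and 100.3 kb. Those of Lat, Sh2d2a, Ptprc and Sla2 spanned 25.74, 28.97, 132.4 and 33.07 kb. H3K4me1 was present in both treatments at 105 regions (64.8%), in Veh only at 21 (13%) and in GSK only at 34 (21%), against 67%, 10.2% and 22.3% of the 15331 regions in the loci of the 12997 genes. The GSK-only regions were most at Grap2, Nfatc1 and Cblb (3 each) and the Veh-only ones at Vav1 and Cbl (3 each). H3K4me2 was in both treatments at 1 region (in Nfatc2, 0.617% against 1.93%), in Veh only at 11 (6.79% against 6.33%) and in GSK only at 3 (1.85% against 0.868%). It was in neither at 90.7% of the regions, near the 90.9% in the loci of the 12997 genes. With both lists of each antibody cut to equal length, H3K4me1 was in Veh only at 33 regions and in GSK only at 23, the opposite order. LSD1 was found in both treatments at 12 regions (7.41% against 6.71%), in Veh only at 11 (6.79% against 9.59%) and in GSK only at 4 (2.47% against 4.25%).

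Where LSD1 was called in Veh but not in GSK, H3K4me1 was present in both treatments at 9 of the 11 regions and in GSK only at 2, against 1282 and 143 of the 1471 such regions in the loci of the 12997 genes. The Malt1 site 7652 bp beyond the gene is 1 of these 2, with H3K4me1 at fold 2.96 in GSK. At the 12 regions with LSD1 in both treatments H3K4me1 was present in both at all 12, against 953 of 1029 in the loci of the 12997 genes. Without a Veh LSD1 peak, H3K4me1 was in GSK only at 32 of 139 regions of these loci, against 3220 of 12831. H3K4me2 was called in GSK only at 0 of the 11 regions with LSD1 in Veh but not in GSK, against 30 of 1471.

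Outside promoters these loci held 36 H3K27ac peaks in Veh, 30 of them within a gene body, 17 overlapping H3K4me3 and 13 overlapping LSD1. Most of the length of these loci is gene body, and no background share was computed for these counts. Of the 36 peaks, 8 were overlapped by a GSK peak (22.2%, against 470 of 1750 or 26.9% in the loci of the 12997 genes). The 8 lay in intron 2 of Ptprc, intron 3 of Lcp2, intron 1 of Prkcq (2 peaks), intron 3 of Ptpn22 and intron 1 of Ubash3b (3 peaks). Of the 10 GSK peaks the other 2 were in intron 3 of Nfatc2 (fold 4.78, −log10 p 7.43) and upstream of Malt1 at -3.36 kb from its TSS (6.90, 19.01). The Malt1 site was the strongest distal H3K27ac peak of the 34 loci in either list by −log10 p, and overlapped neither LSD1 nor H3K4me3 in GSK, while the acetylation of the Malt1 promoter itself was called in Veh only. Of the 162 distal regions, 1 had H3K27ac in both treatments (Ubash3b intron 1, 0.617% against 0.646%), 10 in Veh only (6.17% against 2.75%) and 0 in GSK only (against 0.0457%).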

How the data were processed

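ChIP-seq peak lists of 12 libraries (6 antibodies, Veh and GSK, 1 list each) were analysed. The 4 input samples were not analysed here. According to the methods, the authors aligned the reads with Bowtie2 (mm10, unique hits only), discarded duplicates with Samtools and ran MACS2 with input as the control. Which input served each list, the fragment length, and whether peaks were called before or after libraries were sampled to equal reads are not given in the sources used here. The reporting summary says that the ChIP-seq was repeated, and 1 list per antibody and treatment is analysed here. Each deposited peak holds a fold enrichment (a ratio of ChIP pileup to local background), a −log10 p, a −log10 q and a score, which is 10 times the −log10 p in the deposited narrow lists (LSD1, Pol II) and 10 times the −log10 q in the deposited broad lists, truncated to an integer. In Veh and GSK the weakest peaks had a −log10 p of 3.007 and 3.014 for LSD1 and 3.004 and 3.001 for Pol II, and the lowest −log10 q of the histone lists was 3.008 to 3.029. A gene without a peak may therefore hold signal under these limits, and a list grows with depth, which is not in the lists.

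Peaks were intersected with curated RefSeq transcripts of GRCm38.p6 (TSS ± 1 kb, minimum overlap 1 bp, and gene bodies extended by 10 kb) in Python 3.11.15, and sequence was read with pysam 0.24.0. Groups came from the sample labels. With 1 list per antibody and treatment no test was made, and counts, percentiles within a list and Wilson intervals were given. Overlap queries, merging, promoter calls and the overlap of peaks between lists were tested on simulated data, and the Wilson bounds against a library. The other counting steps were not tested in this way. The members and the lists were chosen with earlier results of these data known, and the 46 further pathway genes were taken from textbook knowledge and are reported here as a list only. Genes named with values were those with a call of LSD1, H3K27ac or Pol II in a single treatment (all by name, the 5 with the highest −log10 p with values), the 3 highest and 2 lowest Veh percentiles per antibody, the 5 richest and 3 poorest loci for LSD1 and H3K4me1, the 5 strongest distal LSD1 peaks of each single treatment, the genes with most distal regions that gained or lost H3K4me1, the 5 widest H3K4me3 peaks, and genes whose TSSs differ in their calls. Other genes named were chosen after their values were seen. Alternatives covered the annotation, the window, the overlap, a stricter cutoff (−log10 p or q of at least 5), lists of equal length, the rank measure and the locus extension.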

Additional observations from a re-analysis of the deposited data

How the results depend on the processing

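No replicate could be left out, and no interval here covers the spread between cultures. No paired analysis was possible because 1 list per antibody and treatment is analysed here and only the inputs, which have no peak list, share replicate numbers. Of 235 recomputed values, 201 stayed within 1.5 times the reported count, within 5 percentile points or, for shares, within the reported interval. Of the others, 33 moved and 1 changed sign, the H3K4me2 rank difference. With equal-length lists the balance of the single-treatment calls also turned for H3K27ac promoters (12 Veh only and 0 GSK only became 2 and 3) and distal H3K4me1 (21 and 34 became 33 and 23). H3K4me3 widths did not move. Shares of Veh LSD1 peaks found in both treatments stayed within their intervals, which are wide. At the stricter cutoff the promoter share became 65.5% (from 77.1%) and the distal share 56% (from 47.5%), a smaller difference. With summits within 500 bp the promoter share was 68.6%. The cause of the changes below was not tested except that equal-length lists hold fewer peaks by construction.

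With lists of equal length, genes called in a single treatment became 2 (H3K4me2, Veh only) and 1 (H3K4me2, GSK only). Distal regions became 0 and 3 (H3K4me2, both and Veh only), and 0, 2 and 1 (H3K27ac, both, Veh only and GSK only). At the stricter cutoff, called genes became 6 (Veh H3K4me2) and 4 (GSK H3K27ac), genes called in a single treatment 7 (LSD1, GSK only), 6 (H3K4me1, GSK only) and 2 (H3K4me2, Veh only), and genes with H3K4me3, H3K27ac and Pol II in GSK 3, an alternative chosen after seeing the data. Peaks per Mb became 39.4 and 44.8 (H3K4me1 in Veh and GSK), 8.90 and 3.81 (H3K4me2) and 13.7 and 3.81 (H3K27ac). With a 500 bp window, 13 genes were called for H3K4me1 in Veh, H3K4me1 and H3K4me2 were in Veh only at 1 and 3 genes, and the LSD1 rank change was 8.63 points. H3K4me1 was in Veh only at 1 gene with predicted transcripts added, and with an overlap of 200 bp at 1 gene, where H3K4me2 was in Veh only at 3. With a window of 2 kb Pol II was in GSK only at 0 genes. Ranked by −log10 p, the change was -8.71 points for H3K4me2, against 1.88 by fold, and -39.2 for H3K27ac. With regions over 1 kb from a TSS, H3K4me2 was in both treatments at 3 regions, and without extension LSD1 was in GSK only at 2.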
